A study of Mus musculus with 13 samples.

Results

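The let-7 family guide strands are the 5p arms of let-7a, let-7b, let-7c, let-7d, let-7e, let-7f, let-7g and let-7i, with miR-98-5p, and they are 9 of the 1079 mouse miRNAs on the array, where they carry the names mmu-let-7a-5p, mmu-let-7b-5p, mmu-let-7c-5p, mmu-let-7d-5p, mmu-let-7e-5p, mmu-let-7f-5p, mmu-let-7g-5p, mmu-let-7i-5p and mmu-miR-98-5p. They were chosen by name and not by their measured values. The values came from 13 primary abdominal neuroblastomas of mice from a study of the TH-MYCN model, in which a MYCN transgene driven by the tyrosine hydroxylase promoter gives tumours of the sympathetic lineage. Total RNA of each tumour was hybridised to its own 1-colour Agilent miRNA array. The 7 tumours deficient in caspase-8, a protease that starts cell death from death receptors, came from mice with bone marrow metastasis. The 6 tumours wild type for caspase-8 came from mice without metastasis. Caspase-8 status and metastasis thus change together and cannot be told apart. Age, sex, strain and the way caspase-8 was lost are not given in the labels used here. The labels call the tumours of a group biological replicates.

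let-7 miRNAs pair through a shared seed with messages that drive growth and the undifferentiated state, among them those of RAS genes, Hmga2, Lin28a, Lin28b and MYCN. They are low in embryonic cells and accumulate as cells differentiate. LIN28 proteins bind a GGAG motif in the loop of most let-7 precursors and block their maturation, so that the mature strand can fall while its gene is still transcribed. In neuroblastoma, let-7 is known as a brake on MYCN, and LIN28B is an oncogene of this tumour. Some primary transcripts carry let-7 together with miRNAs of the miR-99, miR-100 and miR-125 families.

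All 9 guides matched RefSeq by name (build GRCm38.p6). Their mature sequences are shown because the seed they share and the few bases in which they differ set both their targets and how well probes can separate them. Capitals mark the seed, bases 2 to 8 from the 5′ end.
let-7a-5p: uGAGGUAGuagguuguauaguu
let-7b-5p: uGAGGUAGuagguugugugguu
let-7c-5p: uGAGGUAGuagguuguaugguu
let-7d-5p: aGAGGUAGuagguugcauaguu
let-7e-5p: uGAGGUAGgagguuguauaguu
let-7f-5p: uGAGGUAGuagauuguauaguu
let-7g-5p: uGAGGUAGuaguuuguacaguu
let-7i-5p: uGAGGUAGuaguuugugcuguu
miR-98-5p: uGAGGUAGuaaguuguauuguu

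All 9 had the seed GAGGUAG and a length of 22 bases, and their GC content ran from 31.8% to 45.5%. Positions counted from 1 at the 5′ end, let-7c differed from let-7a by A19G alone, let-7e by U9G alone and let-7f by G12A alone. let-7b differed from let-7a by A17G and A19G, let-7g by G12U and U18C, and let-7d by U1A and U16C. miR-98 carried G11A and A19U, and let-7i carried G12U, A17G, U18C and A19U. Outside these names, miR-1961 had the same seed and was detected on 0 of 13 arrays, and let-7k was not on the array.

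The 9 guides come from 12 hairpins. Coordinates are those of GRCm38.p6. The hairpins of let-7d (chr13:48536012-48536114), let-7f-1 (chr13:48537829-48537917) and let-7a-1 (chr13:48538179-48538272) lie in a row on the minus strand, with 262 bases between let-7f-1 and let-7a-1. let-7c-2 (chr15:85706603-85706697) and let-7b (chr15:85707319-85707403) lie 622 bases apart on the plus strand within the long noncoding RNA Lncppara. let-7f-2 (chrX:151912346-151912428) and miR-98 (chrX:151913214-151913321) lie 786 bases apart within Huwe1, which encodes a ubiquitin ligase. let-7g (chr9:106178840-106178927) lies within Wdr82, and let-7i (chr10:122985640-122985724, minus strand) had no other miRNA within the 50 kb searched. let-7a-2 (chr9:41536716-41536811) lies within the noncoding Mir100hg, 5212 bases from miR-100 and 45115 bases from miR-125b-1. let-7c-1 (chr16:77599657-77599750) lies 657 bases from miR-99a, and let-7e (chr17:17830352-17830444) lies within Spaca6, 368 bases from miR-125a.

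Because LIN28 reads the loop, the stretch between the arms was searched for GGAG on the RNA strand. It was present in 9 of the 12 let-7 and miR-98 hairpins (75%), against 52 of all 644 mouse hairpins with both arms annotated (8.07%). Examples of loops with the motif, in capitals, and of loops without these letters, those of let-7b and let-7c-2, are shown.
let-7a-1 loop: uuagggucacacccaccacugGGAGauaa
let-7e loop: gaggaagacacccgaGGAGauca
let-7g loop: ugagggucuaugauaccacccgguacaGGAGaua
let-7b loop: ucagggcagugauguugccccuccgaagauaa
let-7c-2 loop: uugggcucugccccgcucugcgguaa

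Detected miRNAs per array numbered 375 to 469 in deficient tumours and 338 to 452 in wild-type tumours, and no spot was saturated. Of the lists of tissue-enriched miRNAs, all 7 neuronal and sympathetic miRNAs were detected on every array, with summed scaled signals of 6690 to 11203 in deficient and 7116 to 14858 in wild-type tumours. Of the 5 embryonic miRNAs listed, miR-302a, miR-302b and miR-302d were detected on no array, 1 was detected on all arrays and 2 were tested. The embryonic list summed to 288 to 629 in deficient and 236 to 560 in wild-type tumours. Skeletal muscle miRNAs stood high in 3 tumours, at 3736 in deficient replicate 3, 8994 in deficient replicate 4 and 3588 in wild-type replicate 1. The erythroid miR-451 and miR-144 summed to 19934 to 83502 in deficient and 4988 to 69047 in wild-type tumours. No miRNA was found on the array under the name miR-486-5p, so miR-486 was left out of this sum. The arrays lay on 2 slides, slide 1 with 5 deficient and 2 wild-type tumours and slide 2 with 2 deficient and 4 wild-type tumours.

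A level below is the log2 of the summed probe signal of a miRNA after each array was scaled by its 75th percentile over the miRNAs detected on all arrays. A difference is the mean level in deficient tumours minus that in wild-type tumours, with its standard error (SE) from limma. The arrays measure bulk tumour, where fewer cells of a type and less RNA per cell cannot be told apart. Probes differ in brightness for reasons other than abundance, so the members' levels are not ranked against each other.

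All 9 guides were detected in all 13 tumours, and none differed between the groups past the threshold. At a limma adjusted p under 0.05, 0 of the 9 guides and 0 of the 419 tested miRNAs (0%) were called. At an unadjusted p under 0.05, the counts were 0 of 9 guides and 16 of 419 miRNAs (3.82%). The mean was higher in deficient tumours for 6 guides and lower for 3, against 54.2% of all tested miRNAs higher. The median difference of the guides was 0.02, against 0.04 for all tested miRNAs. The count of 6 became 4 with quantile normalization, 8 when scaling over all mouse miRNAs, and 9 without scaling, where the median of all tested miRNAs moved to 0.22. The sign turned under at least 1 alternative for let-7a, let-7b, let-7c, let-7f, let-7g and miR-98. The guides' 95% intervals together ran from -0.45 to 0.68, or 0.731-fold to 1.61-fold. No guide had groups that did not overlap, against 0.239% of tested miRNAs.

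**Figure D1:**
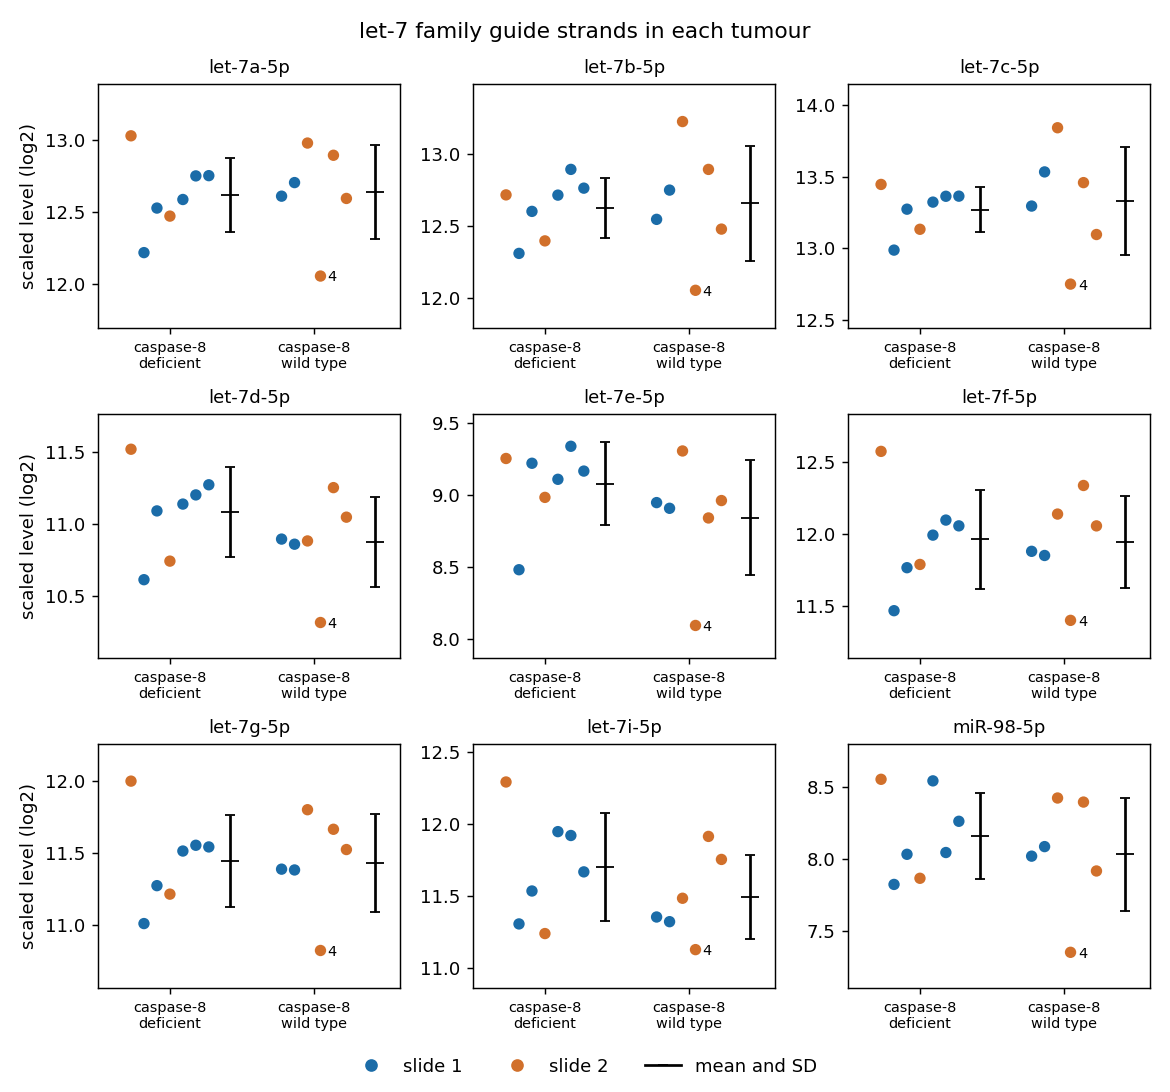
Scaled level (log2, vertical axis) of each let-7 family guide strand in 7 caspase-8-deficient tumours (left) and 6 wild-type tumours (right), coloured by array slide, with the mean and SD beside each group. The groups overlap in all 9 panels, every panel spans the same range, and wild-type replicate 4, marked 4, is lowest in each.

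let-7a-5p, made from hairpins on chromosomes 9 and 13, ran from 12.22 through a median of 12.58 to 13.03 in deficient tumours and from 12.05 through 12.66 to 12.98 in wild-type tumours. The groups overlapped over nearly their whole range, and the difference was -0.02 ± 0.19 (SE; limma adjusted p = 0.990). Its chromosome 13 neighbour let-7f-5p, which also has a copy in Huwe1, had 11.47, 11.99 and 12.58 as lowest, median and highest in deficient tumours and 11.40, 11.97 and 12.34 in wild-type tumours. The difference was 0.02 ± 0.20 (limma adjusted p = 0.993). For both, deficient replicate 1 was highest and wild-type replicate 4 lowest.

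let-7d-5p, the third member of that row of hairpins, had a median of 11.14 (10.61 to 11.52) in deficient tumours and 10.89 (10.31 to 11.25) in wild-type tumours. The highest 2 deficient tumours lay above every wild-type tumour, and the difference of 0.21 ± 0.20 did not pass the test (limma adjusted p = 0.678). let-7d was one of the 3 guides, with let-7e and let-7i, whose mean stayed higher in deficient tumours under every alternative tried. Single tumours set much of its size, since the difference of let-7d was 0.10 without wild-type replicate 4.

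let-7b-5p and let-7c-5p share a transcript on chromosome 15, and let-7c has a further copy beside miR-99a. let-7b-5p had 12.31, 12.72 and 12.90 as lowest, median and highest in deficient tumours and 12.06, 12.65 and 13.23 in wild-type tumours. let-7c-5p had 12.99, 13.32 and 13.44 in deficient tumours and 12.75, 13.38 and 13.84 in wild-type tumours. In both, the wild-type tumours held the lowest value, in replicate 4, and the highest, in replicate 3, so every deficient tumour lay inside the wild-type range. The SD of let-7b-5p was 0.21 in deficient and 0.40 in wild-type tumours, and that of let-7c-5p was 0.16 in deficient and 0.38 in wild-type tumours (n = 7 and 6). This contrast in spread was not tested. The difference was -0.03 ± 0.20 for let-7b-5p (limma adjusted p = 0.986). For let-7c-5p it was -0.06 ± 0.18 (limma adjusted p = 0.955), the lowest of the 9.

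let-7e-5p, made beside miR-125a, had 8.48, 9.17 and 9.34 as lowest, median and highest in deficient tumours and 8.09, 8.93 and 9.31 in wild-type tumours. Deficient replicate 2 stood apart below the other 6 deficient tumours, which lay between 8.98 and 9.34. The difference of 0.24 ± 0.21 was the largest of the 9 and did not pass the test (limma adjusted p = 0.668). It became 0.09 once wild-type replicate 4 was left out and 0.34 once deficient replicate 2 was.

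let-7g-5p had 11.01, 11.51 and 12.00 as lowest, median and highest in deficient tumours and 10.82, 11.46 and 11.80 in wild-type tumours. Its difference was 0.01 ± 0.20 (limma adjusted p = 0.995), so the groups lay together. let-7i-5p, the guide farthest from let-7a in sequence, had 11.24, 11.67 and 12.29 in deficient tumours and 11.12, 11.42 and 11.91 in wild-type tumours. The highest 3 deficient tumours lay above every wild-type tumour, replicates 5 and 6 of them only just, at 11.94 and 11.92, and the difference was 0.21 ± 0.21 (limma adjusted p = 0.707), or 0.11 without deficient replicate 1. miR-98-5p, whose hairpin neighbours let-7f-2, had 7.82, 8.05 and 8.56 in deficient tumours and 7.35, 8.05 and 8.43 in wild-type tumours. Its medians were alike to 2 decimals, and its difference was 0.13 ± 0.21 (limma adjusted p = 0.847).

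**Figure D2:**
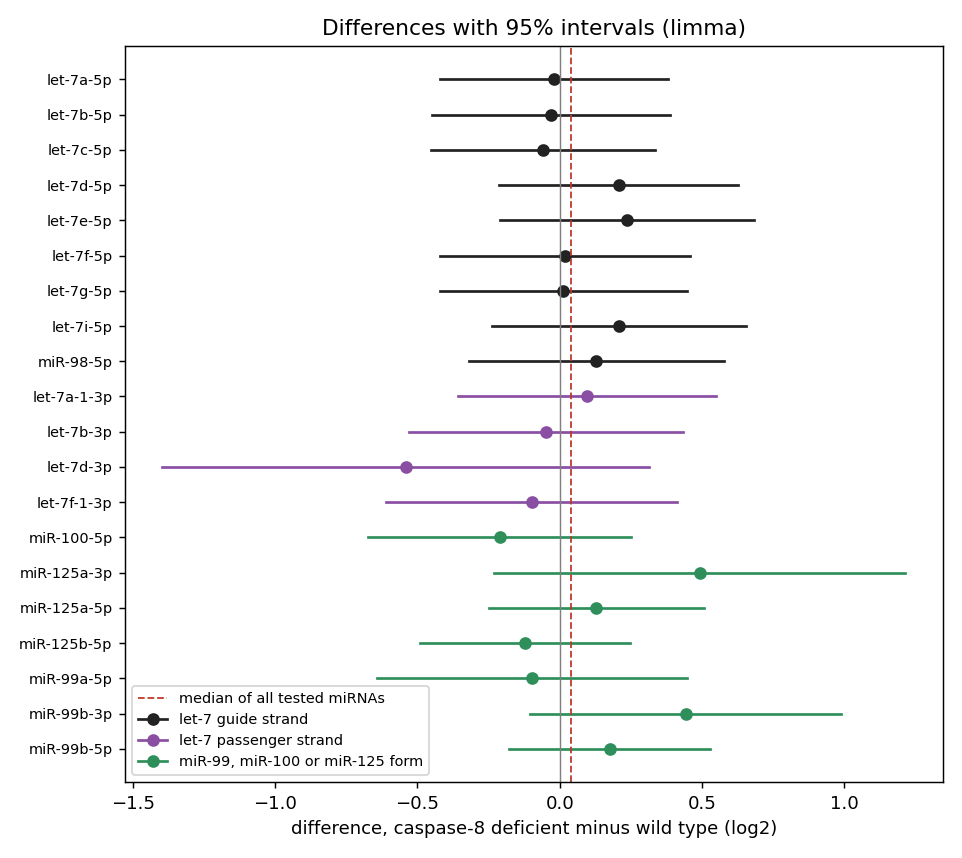
Difference in level between caspase-8-deficient and wild-type tumours (log2, horizontal axis, positive when higher in deficient) with 95% intervals for the 9 guides, 4 passenger strands and 7 miR-99, miR-100 and miR-125 forms tested. Every interval includes 0, and the dashed line marks the median of all 419 tested miRNAs, 0.04.

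The same tumours were low or high for most guides. On the scaled levels, wild-type replicate 4 was lowest for all 9 guides. Deficient replicate 2 was second lowest for 8 of them, and deficient replicate 4 for let-7i. Deficient replicate 1 was highest for let-7a, let-7d, let-7f, let-7g, let-7i and miR-98, wild-type replicate 3 for let-7b and let-7c, and deficient replicate 6 for let-7e. Outside the guides, wild-type replicate 4 was also lowest for miR-125a-5p, miR-125b-5p and miR-99b-5p. Without scaling, the mean over the 9 guides was lowest in deficient replicate 2, at 10.48, with 10.55 in wild-type replicate 4. The mean level over the 9 guides was 11.33 ± 0.26 in deficient tumours (SD, n = 7; 10.91 to 11.71) and 11.25 ± 0.32 in wild-type tumours (n = 6; 10.66 to 11.56). From the lowest to the highest tumour, single guides spanned 1.97-fold to 2.37-fold. Their SD across the 13 tumours was 0.27 to 0.35, with a median of 0.32, against a median of 0.47 for the 294 miRNAs detected on all arrays.

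The direction of the family depended on single tumours. Without wild-type replicate 4, 3 guides were higher in deficient tumours and their median difference was -0.09. Without wild-type replicate 3, all 9 were higher and the median was 0.09. Within slide 1, 6 guides were higher, with a median of 0.01 and a range from -0.15 for let-7c to 0.34 for let-7i. Within slide 2, 8 were higher, with a median of 0.19 and a range from -0.11 for let-7b to 0.32 for let-7e. With slide as a block, 7 were higher, with a median of 0.10. None passed the test in any of these fits, and the interaction of group and slide was called for 0 of 9 guides and 0 of 419 miRNAs (0%; limma adjusted p of the guides 0.924 to 0.982; 20 of 419 at an unadjusted p under 0.05).

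The guides varied together across tumours. Over 36 pairs and 13 tumours, Pearson's r ran from 0.394 to 0.969 with a median of 0.802, and 34 pairs by Pearson's r and 27 by Spearman's rho had an adjusted p under 0.05 (permutation test, two-sided, adjusted over the 36 pairs). The median over the 43071 pairs of miRNAs detected on all arrays was 0.0168. Without the 2 tumours farthest from the median of the first member, r stayed positive for all 36 pairs, with a median of 0.659 and a lowest value of 0.225. The median was 0.860 within deficient tumours, 0.864 within wild-type tumours, 0.757 within slide 1 and 0.867 within slide 2. All values on an array share its RNA sample, its hybridisation and its scaling factor, and the part of these in the shared variation was not tested.

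let-7f with let-7g gave the highest value (r = 0.969, rho = 0.989; adjusted permutation p = 0.00012 and 0.00018), although their genes lie on different chromosomes. let-7b with let-7c had r = 0.958 (rho = 0.907), let-7a with let-7g 0.967 (rho = 0.945) and let-7d with let-7i 0.901 (rho = 0.901), each with an adjusted permutation p of 0.00094 or lower. The pairs that missed the threshold by Pearson's r were let-7c with let-7i (r = 0.394, rho = 0.440; adjusted permutation p = 0.184 and 0.135) and let-7b with let-7i (r = 0.499, rho = 0.566; adjusted permutation p = 0.0863 and 0.0555). Over all 13 tumours, let-7b and let-7c thus moved closely together, as did let-7d and let-7i, while the pairs across these couples were looser. Within deficient tumours, let-7c had r = 0.977 with let-7d and 0.862 with let-7i, and let-7b had 0.847 and 0.773. Within wild-type tumours these values were, in the same order, 0.565, 0.309, 0.638 and 0.459. let-7b with let-7c had 0.908 within deficient and 0.977 within wild-type tumours, and let-7d with let-7i 0.898 and 0.895. This contrast between groups was not tested.

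Sequence distance did not order the pairs simply. The 4 pairs that differ by 1 base had r from 0.797 to 0.958, with a median of 0.913. The 11 pairs that differ by 3 bases had a median of 0.780, and the 9 that differ by 4 bases 0.813. let-7d and let-7i, which differ by 6 bases, had r = 0.901. How far a probe of a guide also reads another guide was not tested, so the values of pairs that differ by few bases are uncertain as separate measurements.

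The proportions between guides varied among tumours. Measured as let-7b minus let-7i on the log2 scale, the ratio spanned 1.32 over the tumours, lowest in deficient replicate 1 at 0.43 and highest in wild-type replicate 3 at 1.75. It averaged 0.93 ± 0.25 in deficient tumours and 1.17 ± 0.37 in wild-type tumours (SD, n = 7 and 6). let-7c minus let-7i spanned 1.20 and let-7c minus let-7d 1.03, with the same lowest and highest tumours. By contrast let-7b minus let-7c spanned 0.31 and let-7f minus let-7g 0.33. These ratios were picked after their values were seen and have no test, and their absolute size carries the probes' brightness.

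**Figure D3:**
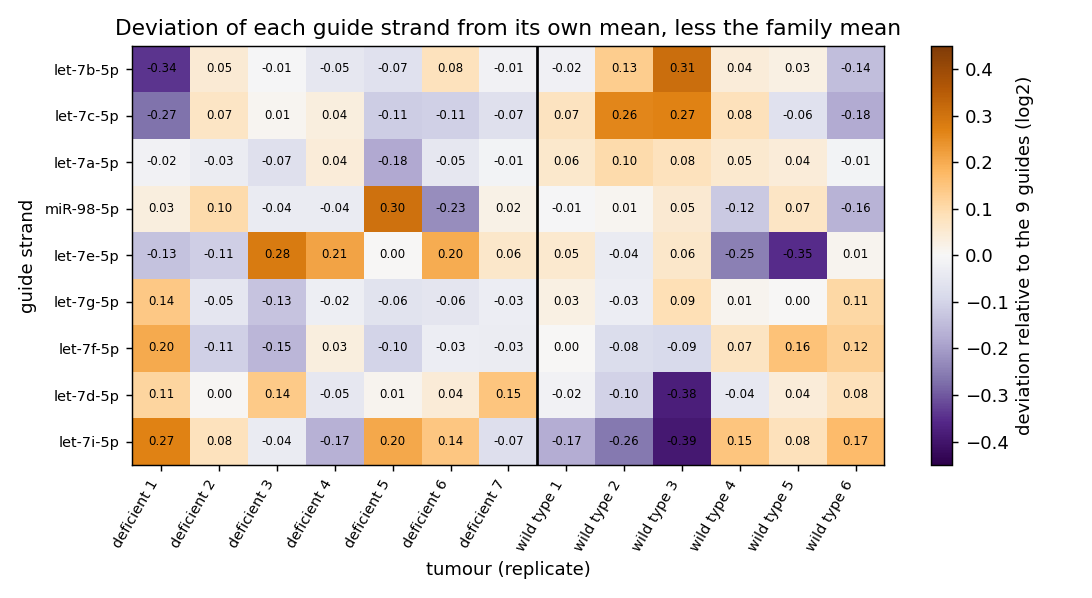
Deviation of each guide (rows) from its own mean over the 13 tumours (columns, deficient left of the line and wild type right), less the mean deviation of all 9 guides in that tumour, in log2 units. let-7b and let-7c stand low and let-7i high in deficient replicate 1, and in wild-type replicate 3 the pattern is turned round, with let-7d and let-7i low.

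The passenger strands, cut from the other arm of the same hairpins and mostly degraded once the guide is loaded, were detected less often than the guides. Of 11 such forms on the array, 4 were tested, let-7c-1-3p was detected on 2 arrays, and let-7a-2-3p, let-7e-3p, let-7f-2-3p, let-7g-3p, let-7i-3p and miR-98-3p on none. let-7b-3p had 6.15, 6.44 and 7.00 as lowest, median and highest level in deficient tumours and 5.96, 6.66 and 7.06 in wild-type tumours, a difference of -0.05 ± 0.22. let-7f-1-3p had 5.94, 6.45 and 6.81 in deficient tumours and 5.71, 6.48 and 7.02 in wild-type tumours, a difference of -0.10 ± 0.24. In both, the groups overlapped widely. Both were lowest in wild-type replicate 6 and highest in wild-type replicate 2. Whether a probe of one also reads the other was not tested, so they are uncertain as separate measurements. let-7a-1-3p was detected in 6 of 7 deficient and 4 of 6 wild-type tumours and differed by 0.10 ± 0.21. let-7d-3p was detected in 4 of 7 deficient and 5 of 6 wild-type tumours, with 4.10, 5.88 and 6.54 in deficient tumours and 5.65, 5.94 and 7.06 in wild-type tumours. The lowest of these, in deficient replicate 2, is the floor set on the scaled signal. The difference for let-7d-3p was -0.54 ± 0.40 (limma adjusted p = 0.644), of opposite sign to that of its guide. It was -0.30 without deficient replicate 2, -0.14 with normexp background correction (offset 50) and -0.29 with the mean of log2 probe levels. None of the 4 passed the test, and 1 was higher and 3 lower.

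The miR-99, miR-100 and miR-125 forms, of which miR-99 and miR-100 share a seed and miR-125 is the vertebrate relative of the worm lin-4, gave 7 tested miRNAs of 11 on the array. miR-100-3p, miR-125b-1-3p, miR-125b-2-3p and miR-99a-3p were detected on no array. Of the 7, 4 were higher and 3 lower in deficient tumours, and none was called (smallest limma adjusted p = 0.589). miR-99b-3p had 5.93, 7.00 and 7.29 as lowest, median and highest in deficient tumours and 5.91, 6.35 and 6.99 in wild-type tumours. Its difference was 0.44 ± 0.25, but -0.0023 with normexp background correction (offset 50) and 0.10 within slide 2. miR-125a-3p had 8.80, 9.77 and 10.87 in deficient tumours and 8.39, 9.48 and 10.11 in wild-type tumours, a difference of 0.49 ± 0.34. That difference was 0.32 once deficient replicate 2 was left out, 0.31 once wild-type replicate 3 was, and 0.29 with normexp. The groups overlapped for both arms. The 5p arms differed by 0.18 ± 0.16 for miR-99b, 0.13 ± 0.18 for miR-125a, -0.10 ± 0.25 for miR-99a, -0.12 ± 0.17 for miR-125b and -0.21 ± 0.22 for miR-100. The sign differed between slides for miR-99a-5p, at -0.71 within slide 1 and 0.21 within slide 2, and for miR-100-5p, at -0.50 within slide 1 and 0.19 within slide 2.

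The levels of these forms were also set against the guides across tumours. Between the 9 guides and the 7 forms, 63 relations were computed, and 20 had an adjusted p under 0.05 by Pearson's r (permutation test, two-sided, adjusted over the 63). Of these, 15 were positive, all with 5p arms, and 5 negative, all with miR-99b-3p or miR-125a-3p, the only 3p arms tested. They included many pairs with no shared transcript, such as miR-125a-5p with let-7b (r = 0.796, rho = 0.758; adjusted permutation p = 0.0170 and 0.0311; 0.601 without the 2 farthest tumours, 0.628 and 0.927 within slide 1 and slide 2). Pairs from a shared transcript were not tested against the others. let-7e and miR-125a-5p had r = 0.847 (rho = 0.786; adjusted permutation p = 0.00189 and 0.0286), and miR-125a-5p ranked 2 among the 418 other tested miRNAs by its r with let-7e. Without the 2 farthest tumours r was 0.771, within slide 1 and slide 2 it was 0.736 and 0.925, and within deficient and wild-type tumours 0.765 and 0.894. let-7e and miR-99b-5p had r = 0.760 (rho = 0.670; adjusted permutation p = 0.030 and 0.0586), with 0.579 without the 2 farthest tumours and 0.467 and 0.891 within slide 1 and slide 2. The 3p arms of the same transcript had negative values with let-7e, with r = -0.507 (rho = -0.341) for miR-125a-3p and -0.346 (rho = -0.165) for miR-99b-3p, neither past the threshold (adjusted permutation p of r = 0.130 and 0.310). Without the 2 farthest tumours r was -0.0991 and 0.00758, so that both negative values rest on those tumours. With other guides, miR-99b-3p was negative past the threshold. Its r was -0.780 with let-7a (rho = -0.813; adjusted permutation p = 0.0170 and 0.0195), -0.752 with let-7g, -0.735 with let-7f and -0.645 with let-7c, and -0.804, -0.750, -0.681 and -0.554 for these guides without the 2 farthest tumours. Within slide 1 these values lay between -0.687 and -0.461, and within slide 2 between -0.941 and -0.842. miR-125a-3p was so with let-7a (r = -0.667, rho = -0.747; adjusted permutation p = 0.0459 and 0.0311), with -0.744 without the 2 farthest and -0.799 and -0.672 within slide 1 and slide 2. Counted from the highest r among the 418 other tested miRNAs, miR-125a-3p ranked 373 with let-7a. miR-99b-3p ranked 407 with let-7a and with let-7f, 404 with let-7g and 384 with let-7c. The part of scaling and base composition in these negative values was not tested.

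miR-125b-5p was close to let-7b (r = 0.899, rho = 0.934) and let-7c (r = 0.895, rho = 0.934), each with an adjusted permutation p of 0.00126 by Pearson's r and 0.00094 by Spearman's rho. It ranked 2 of 418 for both guides, without the 2 farthest tumours r was 0.832 and 0.827, and within slides it was 0.743 and 0.948 for let-7b and 0.793 and 0.929 for let-7c. let-7a and miR-100-5p, neighbours on chromosome 9, had r = 0.720, rank 23 of 418 (rho = 0.747; adjusted permutation p = 0.0323 and 0.0311), with 0.735 without the 2 farthest and 0.825 and 0.702 within slides. let-7c and miR-99a-5p, neighbours on chromosome 16, had r = 0.389, rank 113 of 418 (rho = 0.467; adjusted permutation p = 0.250 and 0.173). That relation changed with the tumours used, with r = 0.853 without the 2 farthest, 0.909 within deficient and 0.268 within wild-type tumours, and 0.826 and 0.239 within slides.

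**Figure D4:**
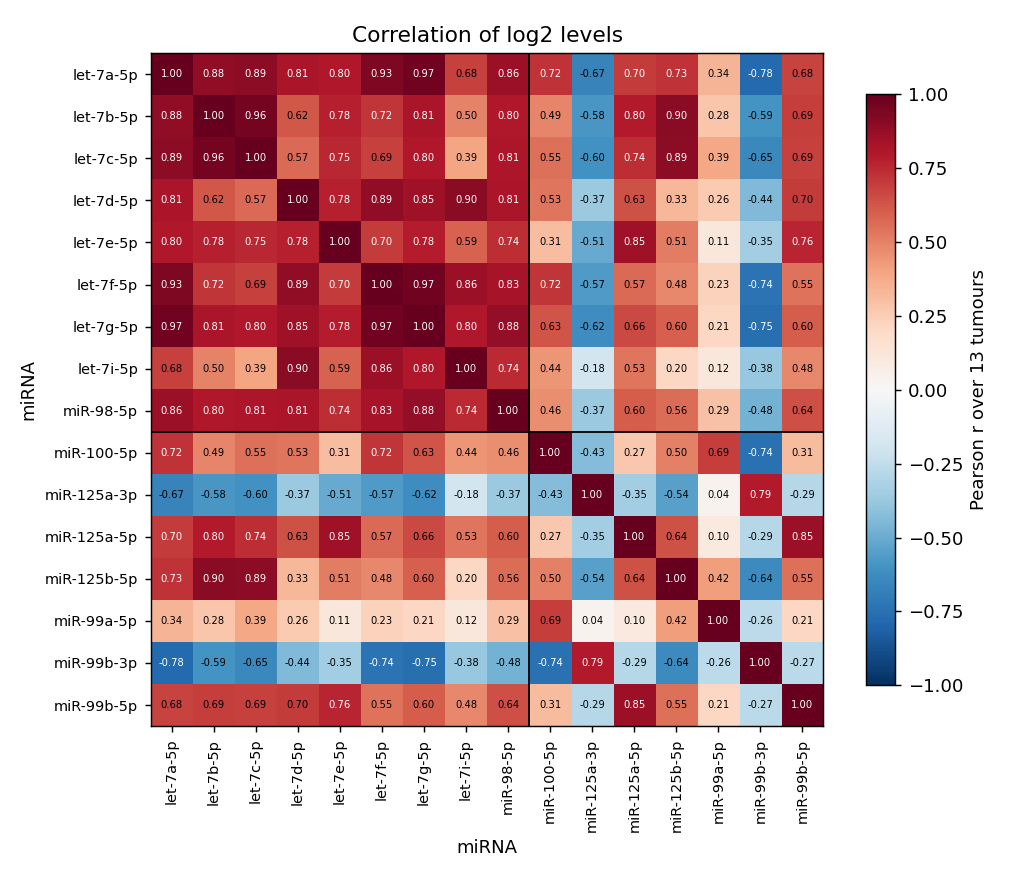
Pearson's r over 13 tumours between the levels of the 9 guides (before the black lines) and the 7 miR-99, miR-100 and miR-125 forms (after them), on a colour scale from -1 to 1. All pairs of guides are positive, miR-125b-5p is highest with let-7b and let-7c, and miR-125a-3p and miR-99b-3p are negative with all 9 guides.

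The miRNAs most like the family mean across the 13 tumours, outside the let-7, miR-99, miR-100 and miR-125 forms, were miR-30e-3p (r = 0.862), miR-30e-5p (0.828), miR-3968 (0.817), miR-151-5p (0.779) and miR-103-3p (0.770). Both arms of miR-30e, which is made from an intron of Nfyc, were among them. Of these arms, miR-30e-3p was detected on 11 of 13 arrays, with a mean level of 5.04, near the floor of 4.10. The least like were miR-3077-5p (r = -0.828), miR-483-5p (-0.823), which is made from an intron of Igf2, miR-1306-3p (-0.822), miR-211-3p (-0.808) and miR-134-5p (-0.801). These values were all weaker without the scaling. Without it, the brightness of an array is shared by all its miRNAs and tends to raise r for any pair. The unscaled values therefore cannot show which relations are free of the scaling. Without scaling, r was -0.244 for miR-3077-5p, -0.177 for miR-483-5p, -0.361 for miR-1306-3p, -0.479 for miR-211-3p and 0.0828 for miR-134-5p, while the 5 most like stayed between 0.842 and 0.946. None of these 10 differed between the groups past the threshold. Several of these values differed between slides, with miR-134-5p at 0.0052 within slide 1 and -0.926 within slide 2.

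On the scaled levels, likeness to the family mean was related to base composition. Among the 216 miRNAs outside these forms that were detected on all arrays and had a RefSeq sequence, GC content and r with the family mean were correlated at -0.588 across miRNAs, which are not independent replicates. The median r was 0.319 for the 40 miRNAs under 40% GC, 0.433 for the 71 from 40% to under 50%, and 0.194 for the 48 from 50% to under 60%. It was -0.397 for the 57 at 60% GC or more, of which 11 were positive. The guides themselves lie in the lower classes. The part of base composition in the shared variation of the guides was not tested.

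Markers of cell types, among them the neuronal and sympathetic lineage of the tumours themselves, were set beside the guides, with 54 relations computed over 6 lists. None had an adjusted p under 0.05 by Pearson's r (permutation test), and 1 had by Spearman's rho. That was let-7d-5p with the endothelial miR-126 arms (rho = 0.835, r = 0.748; adjusted permutation p = 0.0351 and 0.108). Without the 2 farthest tumours r was 0.811, and it was 0.935 and 0.710 within slides and 0.882 and 0.418 within deficient and wild-type tumours. The summed miR-126 signal was 1110 to 4494 in deficient and 1522 to 2850 in wild-type tumours. With the neuronal and sympathetic miRNAs, r ran from -0.0015 for let-7i to 0.599 for let-7c (adjusted permutation p = 0.996 and 0.237). For let-7c it was 0.0768 without the 2 farthest tumours. Within deficient and wild-type tumours r for let-7c was -0.0592 and 0.840, and within slide 1 and slide 2 it was 0.294 and 0.792. let-7i-5p and the leukocyte miRNAs had r = 0.735 (rho = 0.687; adjusted permutation p = 0.108 and 0.131), with 0.668 without the 2 farthest and 0.913 and 0.692 within slides. The leukocyte sum was 2180 to 5595 in deficient and 2388 to 7171 in wild-type tumours. The part of these cells in the guides' levels was not tested. Without the 3 tumours with high skeletal muscle miRNAs, 0 guides were called, 7 were higher in deficient tumours, and the median difference was 0.08 (smallest limma adjusted p of the guides 0.689; an alternative added after seeing the data).

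Each guide was read by 2 probes of 20 spots each, and the probes of a guide correlated across tumours at 0.895 to 0.994. The ratio of the brighter to the dimmer probe differed by slide. Slides did not overlap in this ratio for 5 of the 9 guides, let-7c, let-7d, let-7e, let-7f and let-7g, against 19.7% of the 244 miRNAs with 2 probes detected on all arrays. For let-7f, the log2 ratio had 2.20, 2.27 and 2.35 as lowest, median and highest on slide 1 and 1.92, 1.96 and 2.02 on slide 2. For let-7g it had 1.16, 1.25 and 1.39 on slide 1 and 0.92, 1.00 and 1.05 on slide 2. The deficient and wild-type groups overlapped in this ratio for all 9. The difference between the groups had opposite signs at the brighter and the dimmer probe for let-7b (0.0043 and -0.09), let-7f (0.04 and -0.09) and let-7g (0.05 and -0.07).

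**Figure D5:**
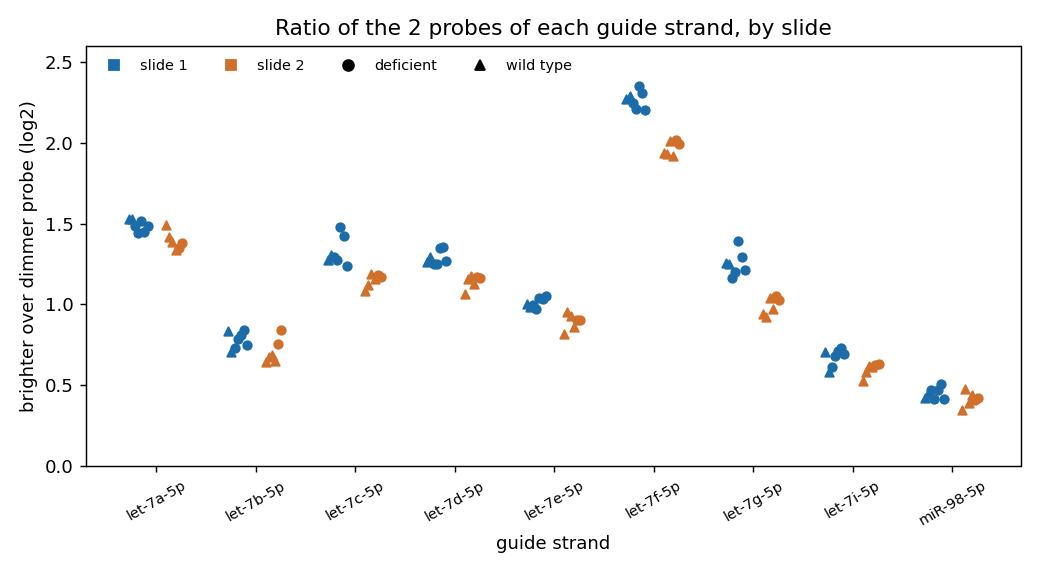
Log2 ratio of the brighter to the dimmer probe (vertical axis) of each guide in 13 tumours, blue for slide 1 and orange for slide 2, with circles for deficient and triangles for wild-type tumours. Slide 1 lies wholly above slide 2 for let-7c, let-7d, let-7e, let-7f and let-7g.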

How the data were processed

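Total RNA of 13 tumours (7 deficient, 6 wild type) was labelled with Cy3 and hybridised to 1-colour arrays, per the labels' protocols. The deposited files hold spot intensity values that the authors' scanner software, Agilent Feature Extraction, had background-subtracted. The file headers give version 10.7.3.1 and the submitters' processing notes 10.5.1.1. Other deposited columns hold marks for control spots, outliers, saturation and detection, per the file headers. The series value table holds log2 values by the authors with an equal distribution on every array (column median 3.82). Its scale was read from the values, and it served as an alternative. Its background handling is not given in the sources used here.

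Each array had 47604 spots, of which 2164 were controls. Spots without outlier marks were averaged per probe and summed per miRNA. The scaling factor of an array was its 75th percentile (850.9 to 1929 intensity units), taken across the 294 miRNAs found on every array. Scaled sums were brought back to a common scale, floored at 17.2 (4.10 on the log2 scale) and log2-transformed. Testing covered the 419 miRNAs with detection on 6 or more arrays and used limma 3.58.1 (R 4.3.3), with Benjamini-Hochberg adjustment over all 419 and a threshold of 0.05. The model held the group alone. The scripts were tested on simulated data. Correlations used 100000 permutations. The number of arrays limits the precision. Slides, each scanned once, were taken as the batch.

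Named miRNAs were the 9 guides, all other let-7 and miR-98 forms, the miR-99, miR-100 and miR-125 forms, miRNAs with the same seed, and the 5 most and 5 least like the family mean. The members, lists and tests were chosen with earlier results of these data known. Alternatives varied the scaling, background, probe summary, detection filter, slide and replicate blocks and the tumours used. The normexp alternative added an offset of 50 to every spot, and the part of this offset in its smaller differences was not tested. The array design was built on another genome build than GRCm38.p6, so no coordinate of the files was used.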

Additional observations from a re-analysis of the deposited data

Results flagged for a closer look

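let-7e-5p in deficient replicate 2 lay at 8.48, apart from the other 6 deficient tumours, of which the nearest lay at 8.98. The gap was 0.586 of the group's range. This was the only tumour to stand apart in this way among 40 groups of values examined, and chance alone sets apart about 1 in 20.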

How the results depend on the processing

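No guide, passenger strand or miR-99, miR-100 or miR-125 form passed the test under any alternative, and 0 of the tested miRNAs did (smallest limma adjusted p 0.0794, with the replicate block). The median difference of the guides ran from -0.09 to 0.10 when tumours were left out in turn. The median correlation of the guides ran from 0.684 to 0.827 when tumours were left out. It was 0.933 without scaling, where the shared brightness of an array tends to raise r. Replicate numbers did not pair the tumours (correlations of deviations -0.22 to 0.19). With the replicate block, which leaves out the unpaired deficient replicate 7, the guides' median difference was 0.0037.

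Some differences changed sign. Among them were those of miR-99b-3p (0.44) and miR-100-5p (-0.21), which were not near 0. With quantile normalization let-7f and let-7g were -0.0248 and -0.0850. Scaling over all mouse miRNAs gave 0.0255 for let-7a and 0.0156 for let-7b. Without scaling let-7a, let-7b and let-7c were 0.174, 0.164 and 0.135, let-7b-3p 0.146, let-7f-1-3p 0.0958, miR-125b-5p 0.0712 and miR-99a-5p 0.0967, where the median of all miRNAs was 0.218. Normexp gave -0.0930 for let-7a-1-3p and -0.00226 for miR-99b-3p. The mean of probe levels gave -0.0208 for let-7f, -0.0101 for let-7g and -0.00240 for let-7a-1-3p. The authors' values gave -0.0272 for let-7f and -0.0829 for let-7g. With slide as a block let-7a was 0.0112. Slide 1 alone gave 0.00862 for let-7b, -0.00649 for let-7g and -0.197 for let-7a-1-3p. Slide 2 alone gave 0.120 for let-7a, 0.00272 for let-7c, 0.189 for miR-100-5p and 0.213 for miR-99a-5p. The replicate block gave -0.00310 for let-7g and 0.00980 for let-7b-3p. Without the 3 tumours high in skeletal muscle miRNAs let-7a was 0.0221 and miR-99a-5p 0.0615. The cause was not tested.

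With tumours left out in turn, the difference ran from -0.137 to 0.0479 for let-7a, -0.151 to 0.0838 for let-7b, -0.174 to 0.0431 for let-7c, -0.0895 to 0.102 for let-7f, -0.108 to 0.0874 for let-7g and -0.00760 to 0.207 for miR-98. It ran from -0.0169 to 0.179 for let-7a-1-3p, -0.182 to 0.0370 for let-7b-3p, -0.254 to 0.00698 for let-7f-1-3p and -0.259 to 0.0844 for miR-99a-5p. For forms that kept their sign it ran from 0.0952 to 0.286 for let-7d, 0.0864 to 0.336 for let-7e, 0.110 to 0.293 for let-7i, -0.706 to -0.300 for let-7d-3p and 0.306 to 0.662 for miR-125a-3p. The number of arrays and SEs near 0.20 limit how small a difference could be called.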
